A study of Brassica rapa with 30 samples.

Results

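The genes described here are 150 Brassica rapa genes whose transcript level stood higher in the cultivar LP08 than in the cultivar Chiifu at every treatment, by a nearly constant factor. They were chosen on that difference. For each gene and treatment, D was the log2 ratio of the mean levels of LP08 and Chiifu in CPM, read counts scaled to a common library total, with 1 CPM added to both. A gene qualified when D was at least 1 at all 5 treatments, when its highest and lowest D lay less than 1 apart, and when it had over 3 counts summed in each cultivar. Of 41018 genes with IDs beginning with Bra, 237 qualified, and the 150 with the highest smallest D were kept, 0.366% of all. The mirror rule, with LP08 constantly lower, was met by 454 genes. The list closed at a smallest D of 1.30, with Bra021529 and Bra005888 as the last inside at 1.30 each and Bra022639 and Bra030153 as the first outside, also at 1.30 each.

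RNA came from whole plants of 2 cultivars, the late-flowering Chiifu and the early-flowering LP08 by their labels. Plants were raised for 3 weeks in a greenhouse. NV plants were taken then, without cold. V1 plants had 1 day of cold, V20 plants 20 days and V40 plants 40 days, and V40T10 plants had 10 days of warmth after 40 days of cold. Each of the 10 groups of cultivar and treatment held 3 libraries. The series title ties the early flowering of oilseed-type plants to a BrFLC2 transcript with a premature stop codon, and the labels give no other allele. Uncooled plants of matching age were not analysed here, so every comparison of treatments, with NV or not, joins cold or warmth with age. Each cultivar is 1 genotype. Whether replicate libraries stem from different plants is not in the labels, so a p-value speaks of library spread, which may be technical. In whole plants, fewer cells of a kind and less transcript per cell cannot be told apart.

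Vernalization is the process by which prolonged cold makes many Brassica plants able to flower once warmth returns. A central part of it is the stable silencing of floral repressors of the FLC family, while other cold responses come and go with temperature. Brassica rapa carries many genes in several related copies that descend from an ancestral multiplication of its genome, and cultivars can differ in the level of single copies. A transcript that differs between cultivars by a constant factor can still rise and fall with temperature in both. None of the 150 IDs was paired with a gene name in the reference table used here, so their functions are not stated, markers of photosynthetic tissue, root or floral meristem could not be looked up, and genes are given by ID. Levels in CPM are not per gene length, so they are compared between samples and not between genes as amounts of transcript. Reads of genes with near-identical copies or overlapping neighbours may have been split or lost in counting.

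Between 16926920 and 26595834 reads were assigned to genes per library. Libraries of a group correlated across genes at 0.988 or more, except in Chiifu NV, where the lowest pair gave 0.950 (log2 of CPM + 1). Chiifu NV libraries deviated from their group mean by an SD over genes of 0.56 to 0.708 on the log2 scale, against 0.193 to 0.377 in the other 9 groups, and this spread enters every comparison with NV. The tests below used 1 estimate of spread per gene for all 10 groups. Standard errors (SE) and p-values of comparisons with NV may therefore understate the error.

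The label of these genes, present in both cultivars, held loosely. In LP08 each of the 150 had counts in all 15 libraries, with mean levels from 1.99 to 467 CPM and a median of 9.72 CPM. In Chiifu 76 had counts in all 15 libraries, 74 were at 0 in at least 1 library, and 39 were at 0 in 8 or more. The median Chiifu level was 0.374 CPM, and 31 genes had at most 15 reads over all Chiifu libraries together. A count of 0 in a single library allows up to 0.0964 to 0.209 CPM, from 3 counts, as far as counting error goes. By their mean over the 15 Chiifu libraries, 97 genes lay under 1 CPM, 24 between 1 and 5 CPM and 29 at 5 CPM or more.

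**Figure D1:**
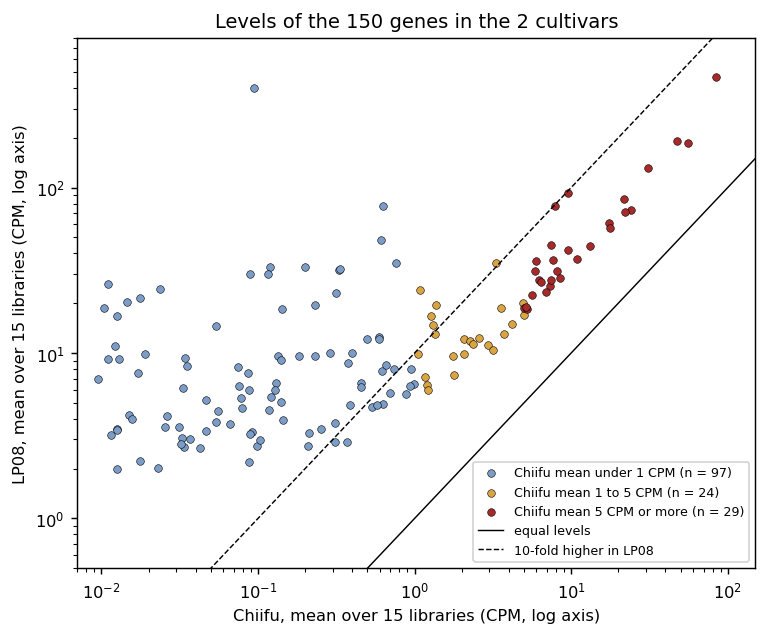
Mean level of each of the 150 genes over the 15 libraries of Chiifu (horizontal) and of LP08 (vertical), both in CPM on log axes, coloured by the Chiifu level. The 97 genes under 1 CPM in Chiifu spread over LP08 levels up to 399 CPM, while the 29 genes at 5 CPM or more lie close to each other at ratios between 3.04 and 9.14.

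The genes with the lowest Chiifu levels had the highest ratios. Without the added 1 CPM, the ratio of LP08 to Chiifu over all libraries was over 100 for 37 genes, between 10 and 100 for 55 and under 10 for 58. Its median was 72.1 for the 97 genes under 1 CPM in Chiifu, 5.19 for the 24 genes in the middle and 3.82 for the 29 at 5 CPM or more. These ratios come from the values that chose the genes and are given as a description.

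Bra033451 had the highest smallest D, 8.02. Its 15 Chiifu libraries ranged from 0 to 0.276 CPM with a median of 0.0454 CPM, and its 15 LP08 libraries from 190 to 534 CPM with a median of 412 CPM. It was read 31 times in Chiifu and 117261 times in LP08, a ratio of 4514 after scaling, with an exact binomial 95% interval of 3180 to 6644 that covers counting error only. By group, the 3 Chiifu NV libraries held 0.24, 0.276 and 0.253 CPM and all 3 Chiifu V40 libraries held 0. The LP08 libraries at these treatments held 449, 458 and 534 CPM and 512, 497 and 386 CPM. The Chiifu group mean was highest at NV, at 0.256 CPM against 0.128 CPM at V20. Chiifu V20 replicate 3, at 0.242 CPM, lay within the range of the NV libraries, and all these values rest on few reads. LP08 was high throughout.

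Bra020391 came next with a smallest D of 5.36, with Chiifu libraries at 0 to 1.61 CPM and LP08 libraries at 45.2 to 131 CPM. In Chiifu its levels were 0, 0.414 and 0.19 CPM at NV and 0.545, 1.18 and 0.967 CPM at V1. In LP08 they were 50.9, 49.1 and 45.2 CPM at NV and 131, 102 and 99.6 CPM at V1. All V1 libraries lay above all NV libraries of their cultivar, while the levels of the cultivars stayed far apart (ratio 126 over all treatments, interval 110 to 145). The average of both log2 changes at V1 was 1.64 (SE 0.38, edgeR adjusted p 0.000721). Its Chiifu part rests on few reads at NV, so the size of this average is uncertain.

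At the other end of the scale, Bra035006 had the highest mean level of the list in both cultivars, 84.4 CPM in Chiifu and 467 CPM in LP08. Its Chiifu libraries ranged from 41.7 to 149 CPM with a median of 66 CPM, and its LP08 libraries from 314 to 632 CPM with a median of 443 CPM. Bra039662, second in Chiifu, had a mean of 55.8 CPM there and 185 CPM in LP08. The 2 cultivars did not overlap in either gene. The 10 genes with the highest CPM, which also reflects gene length, held 47.3% of the summed LP08 CPM of the list, 3765 CPM against 549 CPM in Chiifu.

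The differences were steady over the treatments, as the rule demanded. The median D of the list was 2.16 at NV, 2.21 at V1, 2.3 at V20, 2.23 at V40 and 2.34 at V40T10, and the gap between highest and lowest D of a gene had a median of 0.665. The lowest D of a gene fell on V1 in 46 cases and on NV in 42, and the highest on V40T10 in 44. At each treatment all 150 genes were called higher in LP08 by the edgeR fit, where 20.8% of all rows tested were called higher at NV, 21.7% at V1, 19.9% at V20, 20.1% at V40 and 26.9% at V40T10. All 15 LP08 libraries lay above all 15 Chiifu libraries for 138 of the 150 genes, and the same held for 3.69% of all Bra genes tested. The rule used this contrast, and nothing is read from either count.

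**Figure D2:**
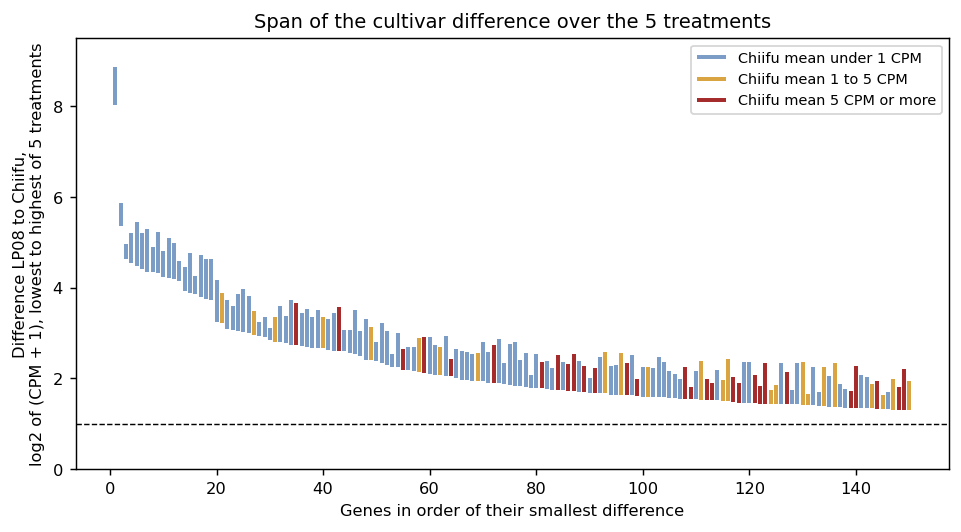
Lowest to highest D over the 5 treatments for each of the 150 genes, in order of the smallest D, coloured by the Chiifu level. The dashed line marks the limit of 1. Genes under 1 CPM in Chiifu hold the left end, up to 8.86, and among the 29 genes at 5 CPM or more the smallest D runs from 1.30 to 2.73.

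In 12 genes the highest Chiifu library lay above the lowest LP08 library, in each case at another treatment. Bra028595 reached 27.7 CPM in a Chiifu NV library and fell to 7.14 CPM in an LP08 V40 library. Bra010419 reached 66.2 CPM in a Chiifu V1 library, with 37.9 CPM in an LP08 V40T10 library. Bra037358 and Bra022880 overlapped likewise, at 15.6 and 12.8 CPM and at 35.5 and 23.3 CPM. Within each single treatment none of the 150 genes overlapped. The 3 LP08 libraries lay above the 3 Chiifu libraries for 21.8% of all Bra genes tested at NV, 29.8% at V1, 29.5% at V20, 28.5% at V40 and 32.8% at V40T10. The rule used this contrast too, and nothing is read from it.

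How the list responded to cold and to renewed warmth was asked with the mean of both cultivars' log2 changes. The choice by D did not use this mean directly, but leaves it free only in part. In comparisons with NV the choice can bear on it, since the spread of libraries differs between cultivars. That spread was 0.56 to 0.708 in Chiifu NV and 0.269 to 0.279 in LP08 NV (SD over genes, log2 scale). It also differed at V40T10, with 0.193 to 0.223 in Chiifu and 0.293 to 0.377 in LP08. The choice can thus bear on comparisons with V40T10 too. Where Chiifu lies far under the added 1 CPM, D is set by LP08 alone, and the limit on its range also bounds the LP08 change. Of the 49 genes under 0.1 CPM in Chiifu, 2 had LP08 means that spanned 1 or more on the scale of log2 of CPM + 1, against 12 of the 29 genes at 5 CPM or more. For these low genes the fitted Chiifu change also rests on a handful of reads and on the prior count of the fit. The counts are therefore given by Chiifu level, and a low share among the 97 low genes is in part built into the choice.

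On the first day of cold, falls outnumbered rises. At V1 against NV, 47 of the 150 genes were called lower and 12 higher (edgeR adjusted p below 0.05), where 30.6% of the 28712 rows tested were lower and 25.9% higher. Among rows at 1 CPM or more in every LP08 group the shares were 31.9% and 29.7%. In percent, 31.3 of the list were lower, near the share of all rows, and 8 were higher. Among the 29 genes at 5 CPM or more in Chiifu, 13 were lower and 5 higher, among the 24 in the middle 10 and 2, and among the 97 low genes 24 and 5. The median log2 change of the list was -0.37, against -0.07 over all rows tested. By class it was -0.385 among the 97 low genes, -0.383 in the middle and -0.171 among the 29 at 5 CPM or more. The list's median thus rests mainly on genes whose fitted Chiifu change has few reads. The rises numbered 19 without Chiifu NV replicate 3. In LP08 alone 28 genes were lower and 9 higher (21.4% and 20.8% of all rows), and in Chiifu alone 39 and 10 (27.9% and 22.3%).

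**Figure D3:**
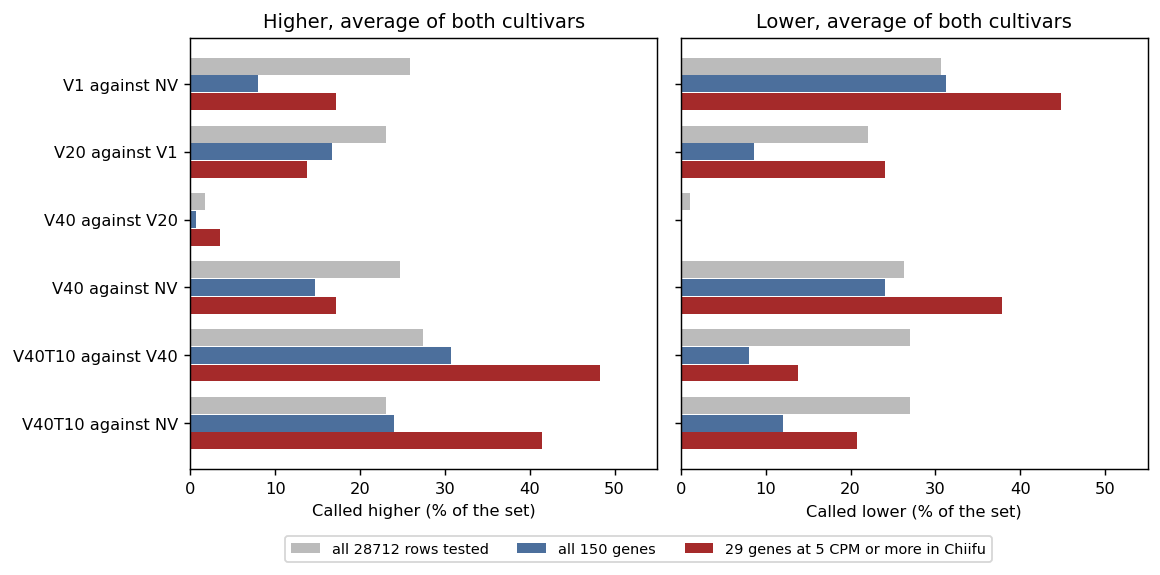
Share of genes called higher (left) and lower (right) in 6 comparisons of treatments, as the average of both cultivars, for all 28712 rows tested, all 150 genes and the 29 genes at 5 CPM or more in Chiifu. In the list, falls outnumber rises at V1 against NV (31.3 against 8%) and rises outnumber falls at V40T10 against V40 (30.7 against 8%).

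Single genes are described where a compared Chiifu group reached 5 CPM. The greatest fall at V1 among them was that of Bra028595. In Chiifu its levels were 22.5, 14.6 and 27.7 CPM at NV and 12.4, 13.2 and 10.2 CPM at V1, and in LP08 98, 107 and 85.6 CPM at NV and 43.7, 45.8 and 32 CPM at V1. The groups did not overlap in either cultivar, and the average log2 change was -1.06 (SE 0.24, edgeR adjusted p 0.000548). Bra005888 fell alike, from 5.03, 6.82 and 9.88 CPM to 3, 4.58 and 2.95 CPM in Chiifu. In LP08 it went from 19.1, 23 and 18.9 CPM to 8.68, 12.3 and 9.34 CPM. Its average change of -1.02 (SE 0.14, edgeR adjusted p 9.23e-07) was shared evenly, with -1.04 in Chiifu and -1.01 in LP08.

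The greatest rises at V1 in this set were larger in Chiifu than in LP08, a difference that the choice of genes bounds. Bra006468 stood at 5.37, 2.26 and 0.823 CPM in Chiifu NV and at 8.35, 7.39 and 8.46 CPM in Chiifu V1. In LP08 it stood at 15.9, 20.1 and 16.7 CPM at NV and at 17.6, 23.2 and 25.4 CPM at V1, where the groups overlap. Its average log2 change was 0.91 (SE 0.21, edgeR adjusted p 0.000638), 0.71 without Chiifu NV replicate 3 and 1.33 without replicate 1, and LP08 alone gave 0.33 with an adjusted p of 0.366. Bra029717 showed the same 3 Chiifu NV libraries far apart, at 10.1, 4.37 and 2.22 CPM, before 11.5, 11.7 and 12.3 CPM at V1. Its average change was 0.68 (SE 0.19, edgeR adjusted p 0.00339), 0.50 without Chiifu NV replicate 3, 1.05 without replicate 1, and in LP08 alone 0.29 with an adjusted p of 0.395. The 3 Chiifu NV libraries thus stood far apart in both genes, with replicate 3 lowest, whereas Bra039662 was lowest in replicate 1 (37.1, 83.2 and 88.9 CPM).

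Between 1 and 20 days of cold the list moved the other way in more genes. At V20 against V1, 25 genes were higher and 13 lower, where 23.0% and 22.1% of all rows were called, and 25.1% and 24.8% of rows at 1 CPM or more in every LP08 group. Chiifu alone gave 18 higher and 8 lower (17.5% and 15.7% of all rows), and LP08 alone 19 and 9 (16.8% and 17.5%). The 29 genes at 5 CPM or more in Chiifu held 4 higher and 7 lower, with a median log2 change of 0.10, the 24 in the middle 8 and 3 and the 97 low genes 13 and 3. The median over the list was 0.11, and whether the classes differ was not tested. Bra021829 was not called at 1 day of cold and rose by 20 days. Its Chiifu levels were 3.63, 2.27 and 3.05 CPM at V1 and 6.88, 7.57 and 7.9 CPM at V20, and its LP08 levels 11.7, 15.3 and 14.5 CPM and 34.1, 31.5 and 28.1 CPM. The average log2 change was 1.25 (SE 0.14, edgeR adjusted p 6.64e-08), after 0.04 at V1 against NV (adjusted p 0.836).

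Bra008711 recovered by V20 from a low at V1 that was deeper in Chiifu. It held 5.32, 8.2 and 5.83 CPM at NV, 1.91, 2.18 and 2.71 CPM at V1 and 5.57, 4.3 and 5.45 CPM at V20 in Chiifu. In LP08 the levels were 17.1, 18.3 and 20.4 CPM, then 14.5, 14.6 and 14.4 CPM, then 17.6, 16.6 and 18.2 CPM. Its average rise from V1 to V20 was 0.72 (SE 0.11, edgeR adjusted p 5.2e-06), of which LP08 alone gave 0.26 with an adjusted p of 0.157. The rule kept D within a range of 1, and for this gene D ranged over 0.863.

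Bra029041 fell after the first day. In LP08 it held 280, 265 and 241 CPM at NV, 344, 248 and 264 CPM at V1 and 150, 121 and 121 CPM at V20. In Chiifu it held 91.5, 84.2 and 37.2 CPM, then 57.5, 59.7 and 65.1 CPM, then 17.8, 31.4 and 27.4 CPM. The change at V1 was -0.05 (adjusted p 0.816) and that from V1 to V20 was -1.19 (SE 0.16, edgeR adjusted p 1.47e-06). Bra028595 went on falling over the same interval, to 3.21, 4.99 and 4.93 CPM in Chiifu and 20.6, 28.2 and 19.4 CPM in LP08, by 1.14 on the log2 scale (edgeR adjusted p 0.000512). LP08 alone gave -0.83 with an adjusted p of 0.0576.

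From 20 to 40 days of cold few genes changed. In the list 1 gene, Bra037358, was called higher and none lower by edgeR, where 1.74% and 1.11% of all rows were called, and 2.02% and 1.00% of rows at 1 CPM or more in every LP08 group. Each cultivar alone called none, where Chiifu called 0.157% of all rows higher and 0.104% lower, and LP08 1.12% and 0.926%. At an unadjusted p below 0.05 there were 13 higher and 5 lower, where 7.63% and 7.29% of all rows were. DESeq2 called 2 higher and 0 lower, where it called 2.71% and 2.24% of all rows. Bra037358 held 5.22, 6.88 and 5.35 CPM at V20 and 12.6, 14.6 and 15.6 CPM at V40 in Chiifu. In LP08 it held 31.9, 30.6 and 28 CPM at V20 and 49.5, 20.6 and 75 CPM at V40, where the groups overlap. Its average change of 0.99 (SE 0.24, edgeR adjusted p 0.0247) lost the call in 7 of 12 cases when 1 library was left out, with an adjusted p of 0.118 without LP08 V40 replicate 3. It also lost it in each cultivar alone, at 0.129 in Chiifu and 0.381 in LP08.

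After 40 days of cold, 36 genes of the list were lower than at NV and 22 higher, against 26.3% and 24.7% of all rows, and 26.6% and 27.6% of rows at 1 CPM or more in every LP08 group. Chiifu alone gave 32 lower and 19 higher (24.6% and 21.3% of all rows), and LP08 alone 19 and 12 (17.9% and 17.4%). The 29 genes at 5 CPM or more in Chiifu held 11 lower and 5 higher. Among genes that reached 5 CPM in a compared Chiifu group, Bra028595 had the deepest fall. It went to 4.44, 2.61 and 5.55 CPM in Chiifu and 16.3, 7.14 and 34.6 CPM in LP08. The log2 change was -2.34 (SE 0.25, edgeR adjusted p 3.32e-08), with -2.36 in Chiifu and -2.33 in LP08. Bra029041 was lower by an average log2 change of -1.34 (SE 0.16, edgeR adjusted p 2.16e-07). In the same set Bra037358 had the steepest rise, from 2.35, 0.645 and 3.17 CPM at Chiifu NV and 15.3, 12.8 and 12.9 CPM at LP08 NV. Its log2 change was 2.32 (SE 0.26, edgeR adjusted p 7.82e-08). Bra021829 rose by 1.39 (SE 0.14, edgeR adjusted p 8.98e-09), to 8.93, 7.66 and 9.01 CPM in Chiifu and 30.2, 30.5 and 33.3 CPM in LP08. In fold terms Bra037358 rose 5-fold and Bra021829 rose 2.62-fold as the average of both cultivars.

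**Figure D4:**
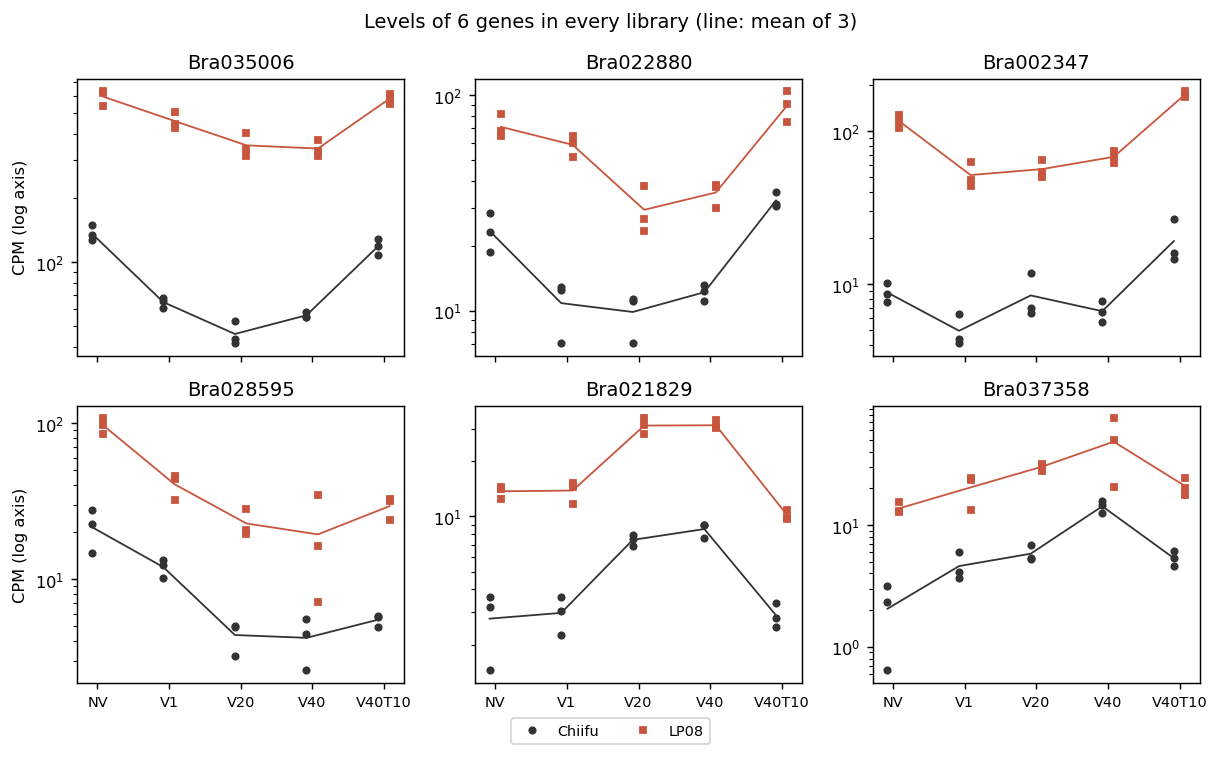
Level of 6 of the genes in every library, in CPM on log axes, by treatment. Points are libraries (3 per group), lines join group means, and the distance between both lines is the cultivar difference. By group means, Bra035006 and Bra022880 are lower in cold than at NV and higher again after warmth. Bra002347 is likewise in LP08, but in Chiifu V20 (6.48 to 11.9 CPM) it overlaps NV (7.62 to 10.2 CPM). Bra028595 stays low (23.8 to 32.5 CPM in LP08 at V40T10 against 85.6 to 107 at NV), and Bra021829 and Bra037358 are highest at V40 or V20.

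On the return to warmth, rises outnumbered falls in the list. At V40T10 against V40, 46 of the 150 genes were higher and 12 lower, where 27.4% and 27.0% of all rows were called, and 27.2% and 30.4% of rows at 1 CPM or more in every LP08 group. In percent, 30.7 of the list were higher and 8 were lower, and the median log2 change was 0.30 against 0.03 over all rows. By class the median was 0.484 among the 97 low genes, 0.158 in the middle and 0.29 among the 29 at 5 CPM or more. The 29 genes at 5 CPM or more in Chiifu held 14 higher and 4 lower, the 24 in the middle 10 and 3 and the 97 low genes 22 and 5. In LP08 alone 37 were higher and 11 lower (24.6% and 25.1% of all rows), and in Chiifu alone 38 and 13 (24.2% and 22.4%). Among the 150 genes of the mirror list, with LP08 constantly lower, 31 were higher and 35 lower, and at V1 against NV 32 were higher and 21 lower. Whether the 2 lists differ was not tested.

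The first day of cold and the return share no library, so their calls can be set side by side. Of the 47 genes that fell at V1, 25 rose on the return, which is 53.2% of the first list and 54.3% of the 46 that rose. Of the 12 that rose at V1, 7 fell on the return, 58.3% of either list. Over all rows tested, 49.2% of those that fell at V1 rose on the return and 53.8% of those that rose fell, so the list's shares lay near those of all rows. In all, 15% of rows fell and then rose and 13.9% rose and then fell. No gene of the list rose in both, and 1 gene, Bra026343, picked out here after its values were seen, fell in both. Of the 25 that fell and rose, 9 were at 5 CPM or more in Chiifu, 7 in the middle class and 9 under 1 CPM. By the end 11 of the 25 were higher at V40T10 than at NV, 1 was lower and 13 were not called. The same split among all rows that fell and then rose was not counted. The 25 were also picked on the NV and V40T10 libraries that this comparison uses again, so nothing is read from the split.

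Bra002347 and Bra022880 had the greatest rises on the return among genes that reached 5 CPM in Chiifu. Bra002347 held 5.65, 7.79 and 6.53 CPM at V40 and 26.7, 15.9 and 14.7 CPM at V40T10 in Chiifu, and 62.2, 67.4 and 73.6 CPM and 167, 173 and 181 CPM in LP08. The groups did not overlap in either cultivar, and the average log2 change was 1.44 (SE 0.16, edgeR adjusted p 3.62e-08). At NV it had been at 7.62, 10.2 and 8.61 CPM in Chiifu and 127, 116 and 105 CPM in LP08, below all V40T10 libraries of the same cultivar. The log2 change from NV to V40T10 was 1.11 in Chiifu and 0.58 in LP08, and 0.85 as their average (edgeR adjusted p 8e-05). Bra022880 rose from 13.2, 11.1 and 12.3 CPM to 30.4, 35.5 and 31.2 CPM in Chiifu. In LP08 it rose from 29.9, 38.4 and 37.5 CPM to 74.8, 104 and 90.2 CPM, with an average change of 1.38 (SE 0.15, edgeR adjusted p 3.51e-08).

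Bra035006, the gene with the highest CPM, also rose on the return, by a smaller log2 change. In LP08 it went from 632, 623 and 537 CPM at NV to 443, 507 and 426 CPM at V1 and 405, 339 and 315 CPM at V20. It stood at 334, 314 and 375 CPM at V40 and 586, 616 and 551 CPM at V40T10. In Chiifu it went from 149, 126 and 134 CPM to 60.7, 66 and 68 CPM, then 41.7, 43.5 and 52.7 CPM, then 58.1, 55.4 and 55.4 CPM, and back to 128, 119 and 108 CPM. The average changes were -0.73 at V1 against NV (SE 0.08, edgeR adjusted p 5.85e-08) and 0.93 at V40T10 against V40 (SE 0.08, edgeR adjusted p 1.55e-09). Its level at V40T10 was not called different from NV (-0.12, adjusted p 0.253).

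The greatest falls on the return, among genes that reached 5 CPM in Chiifu, were those of 2 genes that had risen in the cold. Bra021829 dropped to 2.5, 3.38 and 2.81 CPM in Chiifu and 9.84, 9.62 and 10.9 CPM in LP08, an average change of -1.59 (SE 0.14, edgeR adjusted p 7.63e-10). Against NV it was then at -0.20 (adjusted p 0.267). Bra037358 dropped to 5.31, 6.08 and 4.64 CPM in Chiifu and 17.7, 24.5 and 20.2 CPM in LP08, by -1.31 (SE 0.25, edgeR adjusted p 7.26e-05).

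What remained after the whole course was compared as V40T10 against NV. There 36 genes were higher and 18 lower, against 23.0% and 27.0% of all rows, and 24.5% and 30.2% of rows at 1 CPM or more in every LP08 group. Chiifu alone gave 30 higher and 19 lower (19.8% and 21.3% of all rows), and LP08 alone 21 and 10 (20.3% and 22.5%). Among the 29 genes at 5 CPM or more in Chiifu 12 were higher and 6 lower. Bra037358 stayed higher by 1.01 (SE 0.26, edgeR adjusted p 0.0026), although LP08 alone gave 0.61 with an adjusted p of 0.163. Bra020489 was higher by 0.90 (SE 0.32, edgeR adjusted p 0.0208). Its Chiifu NV libraries held 7.24, 15.5 and 0.443 CPM before 17.3, 16.4 and 16.1 CPM at V40T10, and its LP08 libraries 71.8, 74.6 and 65.1 CPM before 102, 140 and 106 CPM. The change was 1.39 without Chiifu NV replicate 2 and 0.65 without replicate 3, and it lost the call in Chiifu alone (adjusted p 0.0634) and in LP08 alone (adjusted p 0.192).

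Lasting falls were shown by Bra028595 and Bra010419. Bra028595 held 5.72, 5.82 and 4.94 CPM in Chiifu V40T10 and 31.8, 23.8 and 32.5 CPM in LP08 V40T10, an average change from NV of -1.85 (SE 0.25, edgeR adjusted p 1.25e-06). Its rise from V40 to V40T10 was not called (0.50, adjusted p 0.0972). Bra010419 held 34.3, 36.9 and 15.4 CPM in Chiifu NV and 14.5, 16.5 and 15.8 CPM in Chiifu V40T10, which overlap through the third NV library. In LP08 it held 89.7, 82.2 and 113 CPM at NV and 44.2, 42.1 and 37.9 CPM at V40T10, and the average change was -1.04 (SE 0.21, edgeR adjusted p 0.00026).

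The levels were also summed over the genes of each class of Chiifu level. The 29 genes at 5 CPM or more in Chiifu summed to 586 ± 29.9 CPM at NV, 401 ± 9.16 at V40 and 553 ± 20.7 at V40T10 in Chiifu (SD, n = 3 each). In LP08 they summed to 2372 ± 100 CPM, 1693 ± 150 and 2387 ± 92.1 at these treatments. Genes with high CPM weigh most in such sums. From NV to V40, the group mean of Bra035006 went from 597 to 341 CPM in LP08 and from 136 to 56.3 CPM in Chiifu. That of Bra029041 went from 262 to 108 CPM in LP08 and from 71 to 27.2 CPM in Chiifu. Of the 29 genes, 11 were called lower and 5 higher at V40 against NV, where 26.3% and 24.7% of all rows were called. The 24 genes in the middle summed to 64.1 ± 12.8 CPM at NV, 42.2 ± 1.85 at V1 and 64.3 ± 1.37 at V40T10 in Chiifu, and to 321.7 ± 11.3, 280.7 ± 12.9 and 388.7 ± 16.4 CPM in LP08. The 97 low genes summed to 24.3 ± 6.16 CPM at NV, 14.1 ± 0.501 at V1 and 31.2 ± 2.99 at V40T10 in Chiifu, and to 1426 ± 114, 1324 ± 67.4 and 1447 ± 33.4 CPM in LP08. The Chiifu sum of the low genes thus lay at V40T10 above all V1, V20 and V40 libraries (13.6 to 19.6 CPM), while the LP08 sum lay within 1263 to 1514 CPM in all 15 libraries. That LP08 sum joined opposite courses of 1 gene and of the sum of the others. Bra033451 alone went from 465 ± 68.8 CPM at V40 to 266 ± 67.6 at V40T10 in LP08. As the average of both cultivars its change was not called. The sum of the other 96 genes went from 970 ± 41.1 to 1182 ± 45.1 CPM, with no overlap of libraries. Genes with high CPM weigh most in this sum too. Of the 97 low genes, 18 (18.6%) were called higher and 6 (6.19%) lower in LP08 alone at V40T10 against V40. Over all rows tested the shares were 24.6% and 25.1%, so neither count exceeds that of rows at large.

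**Figure D5:**
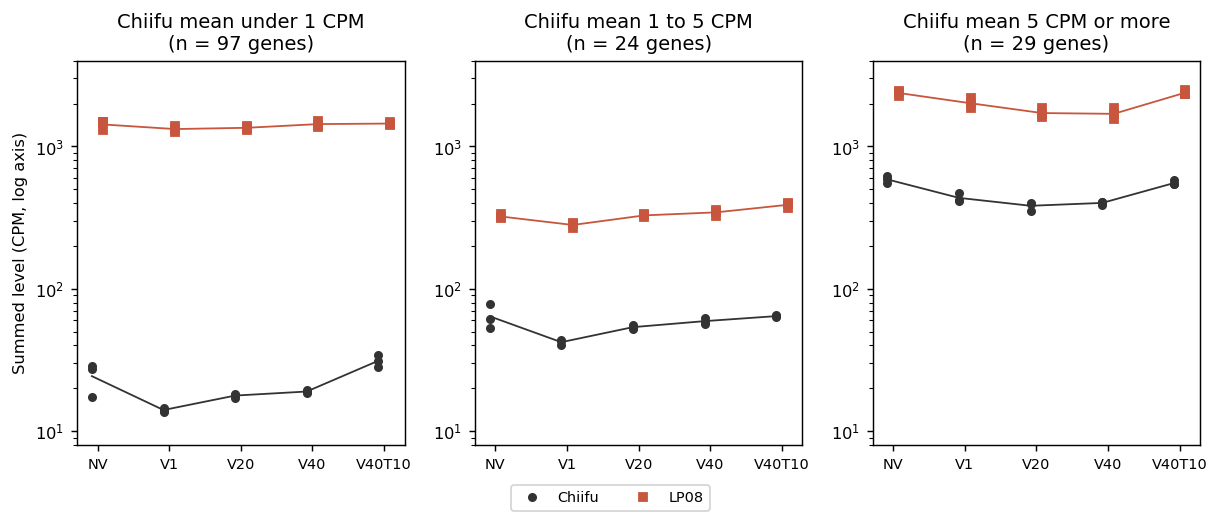
Summed level of the genes of each Chiifu class by treatment, in CPM on log axes. Points are libraries (3 per group), lines join group means. The sum of the 29 genes at 5 CPM or more in Chiifu is lower at V20 and V40 than at NV in both cultivars. Genes with high CPM, such as Bra035006, weigh most in it. The 97 low genes sum to 13.6 to 34.3 CPM in Chiifu and 1263 to 1514 CPM in LP08. In LP08 the lower level of Bra033451 at V40T10 offsets the higher sum of the other 96.

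Some genes of the list were called in none of the 6 comparisons. These were 47 of the 150 genes (31.3%), where 13.6% of all rows and 9.16% of rows at 1 CPM or more in every LP08 group had no call. Of the 47, 41 were under 1 CPM in Chiifu, 5 in the middle class and 1, Bra037734, at 5 CPM or more, and the rule bounds the changes of the low genes. Bra037734, picked out here for this count, held 3.36 to 7.35 CPM in the Chiifu libraries and 25.8 to 42.7 CPM in the LP08 libraries. Among the 18 genes at 5 CPM or more in every group, Bra040132 and Bra004078 had the smallest range over treatments of the mean of both cultivars, 0.292 and 0.424 on the scale of log2 of CPM + 1, although Bra004078 was called lower at V1 against NV. Bra040132 held 5.08 to 8.99 CPM in the Chiifu libraries and 19.7 to 28.3 CPM in those of LP08, and also had the smallest spread between libraries of a group, with a median coefficient of variation of 5.16%. In that set the largest spreads belonged to Bra030404 at 15.9% and Bra010419 at 15.2%, and the second smallest to Bra014290 at 7.02%. Even Bra014290 held 6.61, 8.06 and 1.27 CPM in the 3 Chiifu NV libraries.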

How the data were processed

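RNA-seq was made from whole seedlings in 30 libraries with a strand-marking mRNA kit, per the labels' protocols. The deposited values are raw read counts per gene made by the authors, who per the submitters' processing notes used FastQC, TopHat2, HTSeq and edgeR. The sources used here do not give versions, genome build, annotation or whether counting used strand, so reads of antisense partners may not be told apart. Rows without a gene stayed out of all totals: 6.91 to 11.6% of reads lay in no feature and 2.67 to 7.29% were not unique.

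The genes were chosen on CPM with TMM factors of the 41018 Bra rows. Tests used edgeR 4.0.16 in R 4.3.3: a quasi-likelihood F test over all 30 libraries with 10 group means, TMM factors and the filterByExpr filter, which kept 28712 rows and all 150 genes, with Benjamini-Hochberg adjustment over all rows and calls at an adjusted p below 0.05. Changes between treatments are averages of both cultivars. They were planned as independent of the choice by D. This does not hold for genes far under 1 CPM in Chiifu. It holds only in part in comparisons with NV or V40T10, where the cultivars differ in spread. Calls between cultivars on these genes, which were chosen by that difference, are given as a description only. The fit was also run on simulated counts, with changes planted at V1 in rows with many counts. These had the same spread in all groups and no choice of genes by D, so they do not test the calls on this list. DESeq2 1.42.0, other scalings, a replicate block, single cultivars and leaving out each library were alternatives.

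Named genes are those with the highest smallest D, the highest levels, the places next to the limit of the list, the smallest range over treatments, the smallest and greatest spread, and the 2 greatest called changes per comparison and direction with 5 CPM in a compared Chiifu group. The genes and lists were chosen with earlier results of these data known. Of the Bra IDs, 1 was in the reference table, and it was not among the 150, so no gene lists or markers were tested. Intervals and floors cover counting error only.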

Additional observations from a re-analysis of the deposited data

How the results depend on the processing

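The number of genes that met the rule was 237, and it was 237 with RLE factors, 201 without scaling factors, 260 with 0.5 CPM added, 196 with 2 CPM added, 260 with group medians, 180 with over 30 counts demanded and 215 to 250 when 1 library was left out. Of the 150 genes, 146, 108, 116, 119, 121 and 105 were kept under the first 6 of these. Factors from all gene rows, an alternative chosen after seeing the data, gave 236 and kept 145. Without the cap, also chosen after seeing the data, the 237 genes held 25 higher and 85 lower at V1 against NV and 47 and 30 at V20 against V1. They held 34 and 72 at V40 against NV, 78 and 27 at V40T10 against V40 and 55 and 39 at V40T10 against NV. These counts come from the same fit, so the shares of all rows given above apply to them. Whether the cap changed the shares called was not tested. In LP08 alone 28 of the 150 were lower at V1 against NV, 12 were higher and 19 lower at V40 against NV, and 21 were higher and 10 lower at V40T10 against NV. In Chiifu alone 8 were lower at V20 against V1. At V40 against V20 each cultivar alone called 0 higher, DESeq2 called 2 higher, and the spread of the compared groups alone gave 3 higher and 1 lower. Shares of all rows were not counted for the compared groups alone or with a library left out, so nothing about the list is read from those counts. Leaving out 1 library gave 10 to 19 higher at V1 against NV and 0 to 2 higher at V40 against V20, and the cause was not tested. Of the 21 calls of named genes, DESeq2, RLE factors and the replicate block kept 21 each, Chiifu alone kept 19 and LP08 alone kept 14.

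With the replicate number as a block, 11 genes were higher and 46 lower at V1 against NV, 25 and 11 at V20 against V1 and 1 and 0 at V40 against V20. There were 22 and 36 at V40 against NV, 45 and 12 at V40T10 against V40 and 37 and 19 at V40T10 against NV. The share of all rows called was not counted for this fit. These counts thus show only how far the list's own calls depend on the block. The numbers did not pair the samples: deviations of same-numbered libraries correlated at -0.304 to 0.274, with 17 of 135 pairs over 0.1, and 7 of 30 libraries correlated best with their own number. Depth limits the 31 genes with at most 15 Chiifu reads in all.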
